A study of Mus musculus with 6 samples.

Results

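For 6 genes of the small proline-rich protein (Sprr) family, Sprr1a, Sprr2a1, Sprr2a2, Sprr2a3, Sprr2b and Sprr3, expression was examined in RNA-seq libraries of sorted antigen-presenting cells from the mouse small bowel. These members had been picked by earlier readouts of the same libraries for their difference between the sorted populations, so that this difference is given here as a description and with no p-value. The fit across all genes gave an SE for each tested member and counted it among the genes called, which is no independent evidence of the difference. A row with the symbol of Sprr1a, Sprr2a1, Sprr2a2 or Sprr2a3 was present among the 26110 genes listed, and Sprr2b and Sprr3 were not analysed here. The 6 libraries came from naive CX3CR1 GFP/+ mice, in which 1 allele of the fractalkine receptor gene Cx3cr1 is replaced by green fluorescent protein and which received no treatment. All mice were on the C57BL/6 background, and their age was not given in the sources used here. MHCII hi CX3CR1- cells and MHCII hi CX3CR1+ cells, which the labels call dendritic cells and the study calls macrophages, were sorted from the muscularis externa (ME), the muscle coat below the mucosa, and each population gave 3 libraries. Tissue of several animals was pooled for each group, and the sources used here do not say if the libraries of a group share a pool. All spreads and p-values therefore describe these libraries, and the variation may be technical.

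SPRR proteins are short, proline-rich proteins that transglutaminases cross-link into the cornified envelope, the protein shell under the membrane of keratinocytes. Their genes sit side by side in the epidermal differentiation complex, between the genes for loricrin, involucrin, filaggrin and the S100 proteins. Outside the skin, Sprr2a is known as a gene of the intestinal epithelium that is induced by bacteria and whose product is bactericidal. Sprr1a is known as a gene that is induced in injured neurons and in stressed heart muscle through gp130 cytokines.

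In the GENCODE M21 annotation of GRCm38, the genes lie on chromosome 3 at chr3:92215799-92221911 (Sprr2a1, plus strand), chr3:92215920-92256724 (Sprr2a2, plus), chr3:92285417-92291405 (Sprr2a3, plus) and chr3:92483952-92485895 (Sprr1a, minus). The annotated span of Sprr2a2 begins inside Sprr2a1, so that these genes overlap. The coding sequence of each Sprr2a gene lies in 1 exon, the second, at chr3:92219092-92219343 for Sprr2a1, chr3:92253905-92254156 for Sprr2a2 and chr3:92288588-92288839 for Sprr2a3. These coding sequences are shown because the separation of the 3 genes by RNA-seq depends on how far they differ. They were read from the GENCODE transcripts, 5′ to 3′ from the start codon to the stop codon, and capitals mark the bases in which Sprr2a3 differs from Sprr2a1.
Sprr2a1 and Sprr2a2: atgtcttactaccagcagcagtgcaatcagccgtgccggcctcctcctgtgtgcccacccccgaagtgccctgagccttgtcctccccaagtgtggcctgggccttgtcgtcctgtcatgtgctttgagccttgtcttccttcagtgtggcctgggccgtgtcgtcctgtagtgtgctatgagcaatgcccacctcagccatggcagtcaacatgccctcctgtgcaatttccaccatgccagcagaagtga
Sprr2a3: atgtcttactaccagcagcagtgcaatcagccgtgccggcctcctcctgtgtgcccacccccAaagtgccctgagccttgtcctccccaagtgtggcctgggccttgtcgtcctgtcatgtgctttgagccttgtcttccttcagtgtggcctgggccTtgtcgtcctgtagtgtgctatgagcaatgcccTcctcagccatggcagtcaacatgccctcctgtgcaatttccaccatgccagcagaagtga

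The coding sequences of Sprr2a1 and Sprr2a2 were identical over all 252 bases. The coding sequence of Sprr2a3 was 98.8% identical to them, with the substitutions G63A, G159T and A192T (base in Sprr2a1, position counted from 1 at the first base of the start codon, base in Sprr2a3). All 3 substitutions fall on the last base of a codon that begins with CC, and codons that begin with CC encode proline whatever their last base is. Of the 83 codons before the stop codon, 26 (31.3%) begin with CC, and in Sprr1a 46 of 144 codons (31.9%) do.

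Reads were assigned by the authors with Kallisto, which compares stretches of 31 bases with the annotated transcripts. Of the 31-base stretches of Sprr2a1, 96.9% also occur in a transcript of another gene, with 93.8% in Sprr2a2 and 70.4% in Sprr2a3. The share was 97.8% for Sprr2a2, which leaves 62 stretches that occur in no other gene, and 73.6% for Sprr2a3, which leaves 753. None of the 759 stretches of Sprr1a occurs in another gene. The values of Sprr2a1, Sprr2a2 and Sprr2a3 are therefore uncertain one by one, and their sum is given beside them. A further transcribed locus, Gm37087, lies within the span of Sprr2a2 on the opposite strand, with a mean value of 2.27 in CX3CR1- libraries, and strandedness was not stated.

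Depth and composition differed between the libraries. From the value that 1 read takes, the libraries held about 5346379 to 17616748 reads assigned to genes, and the depth ranges of both populations overlapped. A level of 3 reads, which was taken as the limit of measurement, corresponded to values of 1.39 to 5.36. The share of mitochondrial genes in a library's total was 51.7 ± 3.76% for CX3CR1- and 19.6 ± 1.55% for CX3CR1+ cells (SD, n = 3 each). All values are the deposited signal normalized between libraries with DESeq2, and fold changes are differences of mean log2(value + 1), CX3CR1- minus CX3CR1+.

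Most of the Sprr signal was assigned to Sprr2a2. Its normalized values were 7072, 5451 and 4082 in CX3CR1- replicates 1, 2 and 3 and 1.18, 1.75 and 7.79 in CX3CR1+ replicates 1, 2 and 3. Each CX3CR1- library stood far above each CX3CR1+ library, and the CX3CR1+ values lay near the limit of measurement. The means were 5535 ± 1497 and 3.57 ± 3.67 (SD, n = 3 each), a ratio of 1549 and a log2 fold change of 10.49 (limma SE 0.47). Divided by the value that 1 read takes in each library, the CX3CR1+ values came to 2.55, 2.13 and 5.50. That of the shallowest CX3CR1- library came to 3048. The same divisor served all genes of a library, and Sprr2a2 values were not whole multiples of it. These numbers therefore only approximate reads. Without CX3CR1+ replicate 3, the library with the highest CX3CR1+ value, the log2 fold change was 11.11.

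Sprr2a1 was listed at 728, 558 and 410 in CX3CR1- replicates 1, 2 and 3, and at 0 in each CX3CR1+ library. The groups did not overlap, and the order of the CX3CR1- libraries was that of Sprr2a2. The CX3CR1- mean of 565 ± 159 (SD, n = 3) was at least 209-fold higher than the mean value that 3 reads take in a CX3CR1+ library. The values corresponded to 698, 312 and 411 reads, each a whole number within 0.01 read.

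Sprr2a3 was listed at 62.5, 18.01 and 59.9 in CX3CR1- replicates 1, 2 and 3, and at 0 in each CX3CR1+ library. Replicate 2 was the lowest CX3CR1- library here, whereas replicate 3 was the lowest for Sprr2a1 and Sprr2a2. The CX3CR1- mean of 46.8 ± 25.0 (SD, n = 3) was at least 17.3-fold higher than the mean value of 3 reads in CX3CR1+ libraries. With about 10.1 reads in replicate 2, this gene had little depth.

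The summed value of the 3 Sprr2a genes was 7863, 6027 and 4552 in CX3CR1- replicates 1, 2 and 3. It is not free of the error of assigning reads. Of the 31-base stretches of Sprr2a1, 6.90% also occur in Sprr2b, which is outside the sum. Any scaling that differs between the genes would also change it. In CX3CR1+ libraries the sum equalled the value of Sprr2a2. The mean of 6147 ± 1659 (SD, n = 3) was 1720 times the CX3CR1+ mean of 3.57 ± 3.67 (SD, n = 3), with a log2 fold change of 10.64 (11.26 without CX3CR1+ replicate 3). With the libraries of a group pooled, about 15469 estimated reads stood against about 10. The ratio of depth-scaled rates was 2509, with an exact 95% counting interval of 1364 to 5232. The interval treats these approximate reads as counts and covers counting error only. Pooling also gives deeper libraries more weight than the ratio of means does. Within CX3CR1- libraries the sum varied 1.73-fold from the lowest to the highest, and it made up 0.0849 to 0.14% of a library's total without mitochondrial genes. Since these are bulk samples, fewer cells of a type and less RNA per cell cannot be told apart.

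Sprr1a was low in both populations. Its values were 12.5, 21.5 and 3.99 in CX3CR1- replicates 1, 2 and 3, from 12, 12 and 4 reads. CX3CR1+ replicates 1 and 2 were listed at 0 and replicate 3 at 4.25, from 3 reads. The groups overlapped, because CX3CR1- replicate 3 lay below CX3CR1+ replicate 3. The pooled 28 against 3 reads gave a ratio of 15.1 with an exact 95% counting interval of 4.68 to 77.8. This interval covers counting error only and leaves out the variation between libraries. The log2 fold change was 2.72. Leaving out 1 library at a time gave 2.24 (without CX3CR1- replicate 2) to 3.52 (without CX3CR1+ replicate 3), and 3.33 without CX3CR1- replicate 3. The ratio of the group means, which weights libraries equally, was 8.94. With a mean of 7.04 over the 6 libraries, the gene did not reach the mean of 10 required for the test.

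**Figure D1:**
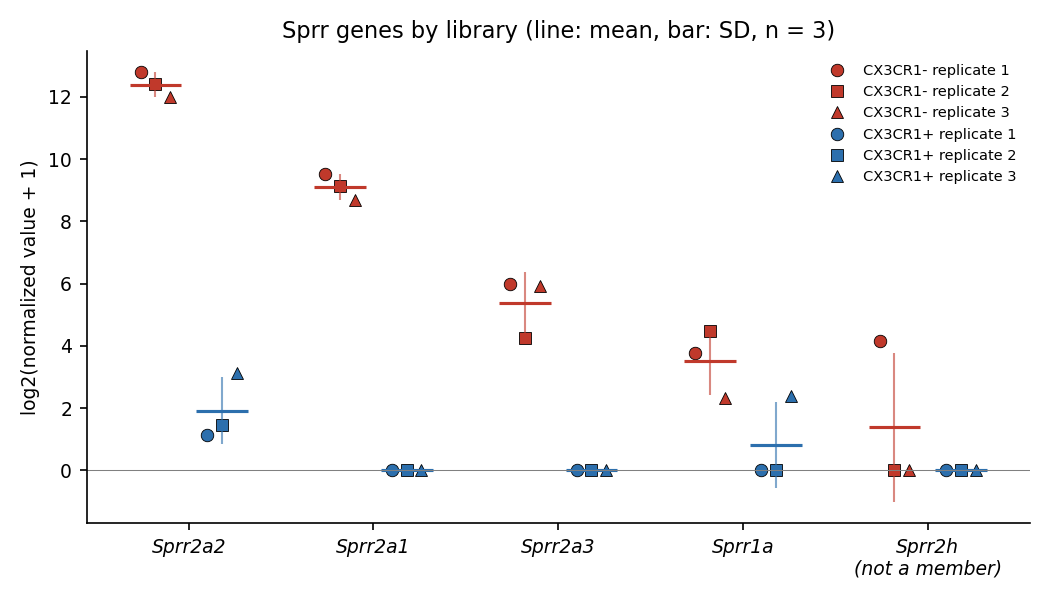
Log2(normalized value + 1) of the 4 members with values and of Sprr2h, a family gene outside the group, in each library. CX3CR1- libraries are red and CX3CR1+ libraries blue, the line is the mean and the vertical bar the SD (n = 3). The red points of Sprr2a2, Sprr2a1 and Sprr2a3 all stand above their blue points, whereas the points of Sprr1a overlap.

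Levels of different genes were compared per kilobase of the longest annotated transcript. On this scale the CX3CR1- mean was 1930 for Sprr2a2, 188 for Sprr2a1, 16.3 for Sprr2a3 and 15.7 for Sprr1a. The values per kilobase in the 3 libraries ran from 1424 to 2467 for Sprr2a2 and from 136 to 243 for Sprr2a1, so that the libraries' values did not overlap between these genes or with the rest. This spread leaves out the error of assigning shared reads, and the order of Sprr2a2 and Sprr2a1 therefore holds for the values as assigned only. Sprr2a3 (6.26 to 21.7) and Sprr1a (4.95 to 26.6) overlapped and could not be ranked. Per kilobase of the shortest annotated transcript, Sprr2a2 came to 7666 and Sprr2a3 to 68.7, which left Sprr2a2 first and Sprr2a1 ahead of Sprr2a3. Sprr2a1 has only 1 annotated transcript, of 3003 bases, while Sprr2a2 also has a short one of 722 bases. The effect of this on the assignment of shared reads was not tested.

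The shares of the 3 near-identical genes in their sum were computed for each CX3CR1- library, with 95% Wilson intervals on the estimated reads. Sprr2a2 took 89.9%, 90.4% and 89.7% in replicates 1, 2 and 3. Sprr2a1 took 9.26%, 9.26% and 9.005%, and its intervals (8.63 to 9.94%, 8.33 to 10.3% and 8.21 to 9.87%) overlapped. Thus the split between Sprr2a2 and Sprr2a1 differed by less than the counting error. Sprr2a3 took 0.795% (0.619 to 1.02%), 0.299% (0.161 to 0.545%) and 1.32% (1.02 to 1.69%). The interval of replicate 2 lay below those of the other replicates. These intervals treat estimated reads as counted molecules and leave out the error of assigning shared reads. They also take the same value of 1 read for all 3 genes, which is an approximation.

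**Figure D2:**
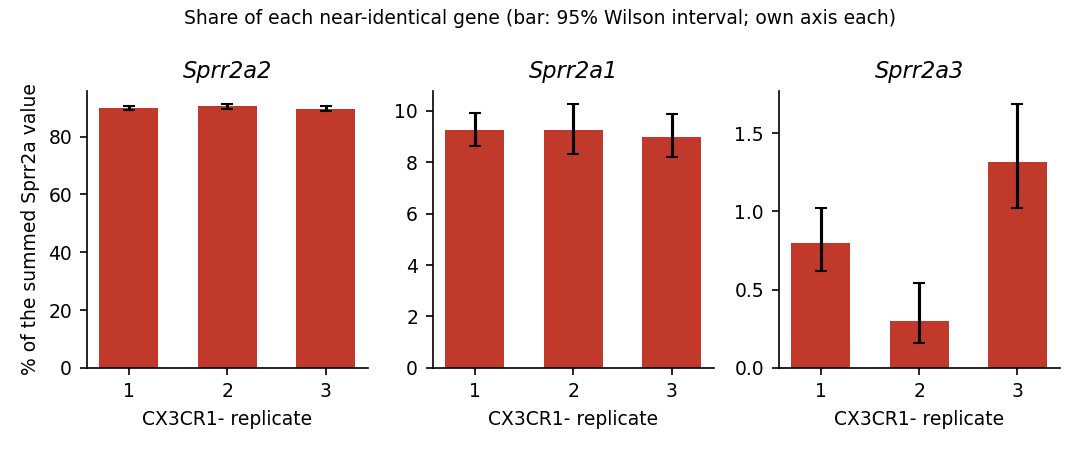
Percent of the summed Sprr2a value that was assigned to Sprr2a2, Sprr2a1 and Sprr2a3 in CX3CR1- replicates 1 to 3, each gene on its own axis from 0, with 95% Wilson intervals. Sprr2a2 stays at 89.7 to 90.4% and Sprr2a1 at 9.005 to 9.26%, while Sprr2a3 ranges from 0.299 to 1.32%.

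Against the background of all genes, 12.2% of the 17812 tested genes were called higher in CX3CR1- cells by limma (log2 fold change of at least 1 and adjusted p of at most 0.05), and 8.15% were called lower. Of the members, 3 passed the filter on low values, and these 3 were called higher and none lower. They passed it only through their CX3CR1- values and had been chosen on this contrast, so that the count supports nothing further. In 20.3% of the tested genes each CX3CR1- library lay above each CX3CR1+ library, as it did for Sprr2a1, Sprr2a2 and Sprr2a3.

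The sequences upstream of the genes are shown because the 3 Sprr2a genes were high in the same libraries. The RefSeq table for GRCm38.p6 held promoters of all 6 members. The sequences are given 5′ to 3′ and end before the first base that GENCODE annotates as transcribed. This leaves off the last 36 bases before the RefSeq start for Sprr2a1 and the last 14 for Sprr1a. Capitals mark matches to an AP-1 motif (TGANTCA) or a TATA box (TATAAA).
Sprr2a1, chr3:92215585-92215798, plus strand: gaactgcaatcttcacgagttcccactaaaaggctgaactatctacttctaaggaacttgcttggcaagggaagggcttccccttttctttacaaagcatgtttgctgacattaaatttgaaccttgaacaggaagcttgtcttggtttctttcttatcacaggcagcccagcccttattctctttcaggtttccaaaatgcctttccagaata
Sprr1a, chr3:92485896-92486131, minus strand: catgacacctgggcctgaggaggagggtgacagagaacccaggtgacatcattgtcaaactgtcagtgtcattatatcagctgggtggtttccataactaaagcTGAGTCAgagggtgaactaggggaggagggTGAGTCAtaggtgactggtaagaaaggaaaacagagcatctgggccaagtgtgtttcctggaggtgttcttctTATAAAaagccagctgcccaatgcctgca

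The 300-base windows of Sprr2a1 and Sprr2a2, from 250 bases before the RefSeq start to 50 after it, were identical. The window of Sprr2a3 held the same sequence moved by 28 bases, with 0 differences over the 272 bases in common. In the 250 bases before the RefSeq start, both strands were searched for these 2 motifs, for the octamer ATTTGCAT and for the STAT motif TTCNNNGAA. For Sprr2a1 and Sprr1a this includes the bases left off above. Of 32851 promoters of this length, 6.75% held the AP-1 motif, 12.37% the TATA box, 1.60% the octamer and 7.02% the STAT motif. Sprr1a held the AP-1 motif beginning 146 and 116 bases and the TATA box beginning 43 bases before its RefSeq start, and no match overlapped another. Sprr2a1 and Sprr2a2 held none of the 4, and Sprr2a3 held the STAT motif, in the part of its window that the others lack. A match is a run of letters and not a binding site, and no match says only that the letters are not in this window.

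Of the 11 other genes of the Sprr family, Sprr2h was the only one with a row. It was listed at 16.7 in CX3CR1- replicate 1, from 16 reads, and at 0 in the other 5 libraries. Its promoter window held the AP-1 motif, the octamer and the TATA box. Within 1000 kb on either side of the Sprr genes, 91 genes are annotated, 57 of them protein-coding, and 16 had a row. Besides the members, 4 of these genes were tested, of which 1 was called higher and none lower, with a median log2 fold change of 0.37. The gene called higher was Tchh, which encodes trichohyalin of the hair follicle sheath, at 21.9, 39.3 and 36.9 in CX3CR1- and 3.24, 3.28 and 9.92 in CX3CR1+ libraries (log2 fold change 2.49, limma SE 0.59, adjusted p = 0.0122). Flg, the gene of filaggrin, lay near the limit of measurement in all libraries, with means of 4.84 ± 0.608 and 4.48 ± 0.532 (SD, n = 3 each). Of the 37 structural genes of the complex, such as those for loricrin and the late cornified envelope proteins, these were the 2 with values.

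**Figure D3:**
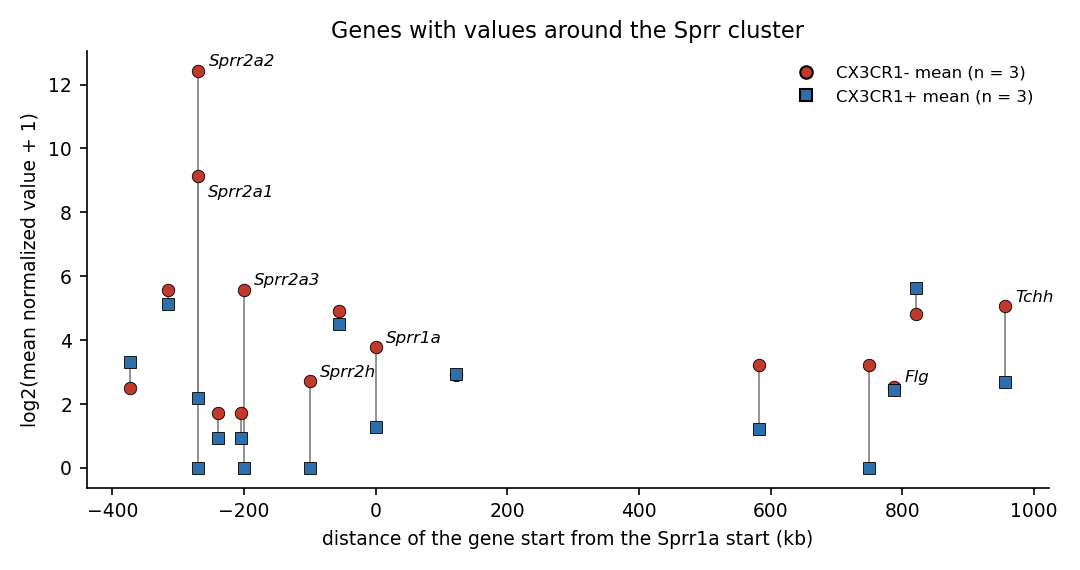
Mean of each population (n = 3), as log2(mean normalized value + 1), for the 16 genes with a row within 1000 kb of the Sprr genes, by distance of the gene start from that of Sprr1a in kb. CX3CR1- means are red circles and CX3CR1+ means blue squares joined by a line. Sprr2a2 and Sprr2a1 stand far above their neighbours in CX3CR1- cells, whereas most other genes lie near the bottom in both populations.

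The S100 genes of the complex, which encode small calcium-binding proteins, were measured in both populations. Of 13 genes, 10 had values and 8 were tested, of which 5 were called higher in CX3CR1- cells and none lower (median log2 fold change 3.18, against -0.003 over all tested genes). S100a4 averaged 828 ± 286 in CX3CR1- and 35.4 ± 15.4 in CX3CR1+ libraries (SD, n = 3 each, log2 fold change 4.53). The others were S100a6 (4.50), S100a10 (3.36), S100a16 (3.28) and S100a11 (3.08). These genes are also active in many leukocytes and stromal cells.

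Genes for transglutaminases and for envelope or junction proteins did not move as 1 group. Of 16 genes for transglutaminases and envelope or junction proteins, 11 had values and 8 were tested, of which 5 were called higher and none lower, with a median log2 fold change of 2.004. The genes called were Dsp, which encodes desmoplakin (5.68), Pkp3, which encodes plakophilin 3 (4.87), Anxa1, which encodes annexin A1 (3.81), Evpl, which encodes envoplakin (2.59), and Jup, which encodes plakoglobin (1.42). The transglutaminase genes were not among them, but only Tgm1 and Tgm2 were tested. Tgm3 stayed under the filter, at 8.35, 0 and 3.99 in CX3CR1- and 5.55, 3.28 and 0 in CX3CR1+ libraries. Tgm5, Tgm6 and Tgm7 had no values. Tgm1 was listed at 15.2, 1.59 and 32.7 in CX3CR1- and 35.3, 22.6 and 43.1 in CX3CR1+ libraries (log2 fold change -1.58, adjusted p = 0.21 by limma), so that the groups overlapped. Tgm2 averaged 341 ± 71.2 and 569 ± 35.6 (SD, n = 3 each), a log2 fold change of -0.75 that did not reach the fold required for a call.

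Of 17 transcription factors from families known to act on Sprr promoters (AP-1, ETS, KLF, STAT3 and NRF2), all had values and 16 were tested. CX3CR1- cells were higher in 4 and lower in 3, and the median log2 fold change was -0.18. Of the factors known from epithelia, Klf5 and Elf3 were higher, with log2 fold changes of 5.76 and 4.65, whereas Ehf (76.6 ± 22.7 and 32.7 ± 21.9, SD, n = 3 each) and Elf5 (32.3 ± 5.24 and 36.0 ± 3.47, SD, n = 3 each) were not called. Klf5 stood at 250, 233 and 257 in CX3CR1- and at 2.29, 3.39 and 5.60 in CX3CR1+ libraries. Fosl1, an AP-1 subunit, was higher by 2.07 on the log2 scale and Klf4 by 1.005. Atf3 (-2.02), Nfe2l2, which encodes NRF2 (-1.61), and Junb (-1.03) were lower in CX3CR1- cells. With quantile normalization the calls of Fosl1, Junb and Evpl were lost, and with equal totals without mitochondrial genes that of Junb, while no sign changed.

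Signals through gp130 are known to induce Sprr1a. Of 16 genes of the gp130 and IL-22 cytokine systems, 14 had values and 12 were tested, of which 4 were called higher and 2 lower, with a median log2 fold change of -0.08. The receptor genes Il22ra1 (3.68) and Osmr (3.64) and the cytokine genes Il6 (3.31) and Clcf1 (1.96) were higher in CX3CR1- cells. Osm, the ligand of the receptor that Osmr encodes, was lower (-3.40), and so was Il10rb (-2.25), a receptor chain shared by IL-10 and IL-22. Ligand and receptor genes of 1 pathway thus differed in opposite directions in these libraries.

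Antimicrobial and microbe-induced genes of the gut epithelium, the group in which Sprr2a is counted in the intestine, were examined next. Of 17 genes, 11 had values and 7 were tested, of which 6 were called higher in CX3CR1- cells and none lower, with a median log2 fold change of 6.03. Lypd8, whose product keeps flagellated bacteria from the mucosa, was listed at 537, 538 and 240 in CX3CR1- and at 0, 4.52 and 0 in CX3CR1+ libraries (log2 fold change 7.86). Zg16, a gene of goblet cells, was listed at 918, 752 and 588 and at 4.62, 20.5 and 0 (log2 fold change 7.23). Reg3b and Reg3g, genes of bactericidal lectins, were listed at 0 in each CX3CR1+ library, and their CX3CR1- means of 89.9 ± 15.2 and 71.6 ± 38.4 (SD, n = 3 each) were at least 33.3-fold and at least 26.5-fold higher than the value of 3 reads. Itln1 was at least 13.05-fold higher by the same measure. The summed value of the list was 1148 to 1728 in CX3CR1- and 1.60 to 27.3 in CX3CR1+ libraries.

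Markers of other cell types of the small bowel were set beside the Sprr2a values. The mucosa had been separated from the ME. The study names the cells of this sort by MHCII and CX3CR1, and it describes the CX3CR1- population elsewhere as CD45+. A gate on CD45 would remove epithelial cells and fibroblasts, but CD45 is not stated for the sort of these libraries. All 16 markers of gut epithelium had values, 15 were tested, and all 15 were called higher in CX3CR1- cells (median log2 fold change 6.36). The largest differences were those of Fabp2 (12.06), Fabp1 (10.12), Krt20 (10.10), Apoa1 (9.72) and Krt8 (8.52). The summed epithelial value was 18299 to 33085 in CX3CR1- and 33.9 to 62.7 in CX3CR1+ libraries, where 8 of the 16 genes were at or under 3 reads in each library and Cdx1 and Alpi were at 0. Of 9 markers of goblet and Paneth cells, 8 were tested and 7 called higher, led by Clca1 (8.89), Muc2 (8.23), Tff3 (7.90), Fcgbp (7.37) and Lyz1 (6.68). Their sum was 4226 to 9393 in CX3CR1- and 30.1 to 57.8 in CX3CR1+ libraries. The part of these cells in the Sprr2a values was not tested.

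Markers of stratified squamous epithelium, the tissue in which the family is best known, were low in both populations. Of 9 markers, 4 had values and none reached the filter, and their sum was 10.97 to 28.6 in CX3CR1- and 4.84 to 10.7 in CX3CR1+ libraries. In CX3CR1- replicates 1, 2 and 3, Krt1 was listed at 13.6, 0 and 5.98, Krt10 at 8.55, 8.75 and 0, Krt14 at 2.33, 7.72 and 0, and Dsg3 at 4.17, 3.58 and 4.99. Krt10 reached 10.2 in CX3CR1+ replicate 1, so that its groups overlapped.

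Within the CX3CR1- libraries, the ratio of the Sprr2a sum to the summed epithelial markers was 0.238, 0.207 and 0.249 in replicates 1, 2 and 3, a range of 1.20-fold. The Sprr2a sum itself ranged 1.73-fold. Against the 15 tested markers one by one, the range of the ratio ran from 1.20-fold for Krt19 to 6.77-fold for Cdx2. For Cdh1, Krt18, Cdx2, Cldn7, Fabp1, Alpi and Lct it was wider than the 1.73-fold range of the Sprr2a sum. Fabp2 alone made up 64.0 to 72.2% of the epithelial sum. The sums of Sprr2a and of the epithelial, goblet and Paneth, antimicrobial and squamous lists were highest in replicate 1 and lowest in replicate 3. No squamous gene reached the filter, so that the order of the squamous sum rests on few reads. Single genes did not all follow the sums. In the epithelial list, Epcam, Cdh1, Krt8, Krt18, Cdx1, Cdx2 and Cldn7 did not. Of the goblet and Paneth genes with values, Muc2, Tff3, Clca1 and Fcgbp did, whereas Spink4, Agr2, Lyz1 and Defa24 did not. In the antimicrobial list, Ang4 and Itln1 were among those highest in replicate 3. The summed fibroblast markers were highest in replicate 3 and lowest in replicate 2. These are descriptions over 3 libraries, and no correlation was computed.

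**Figure D4:**
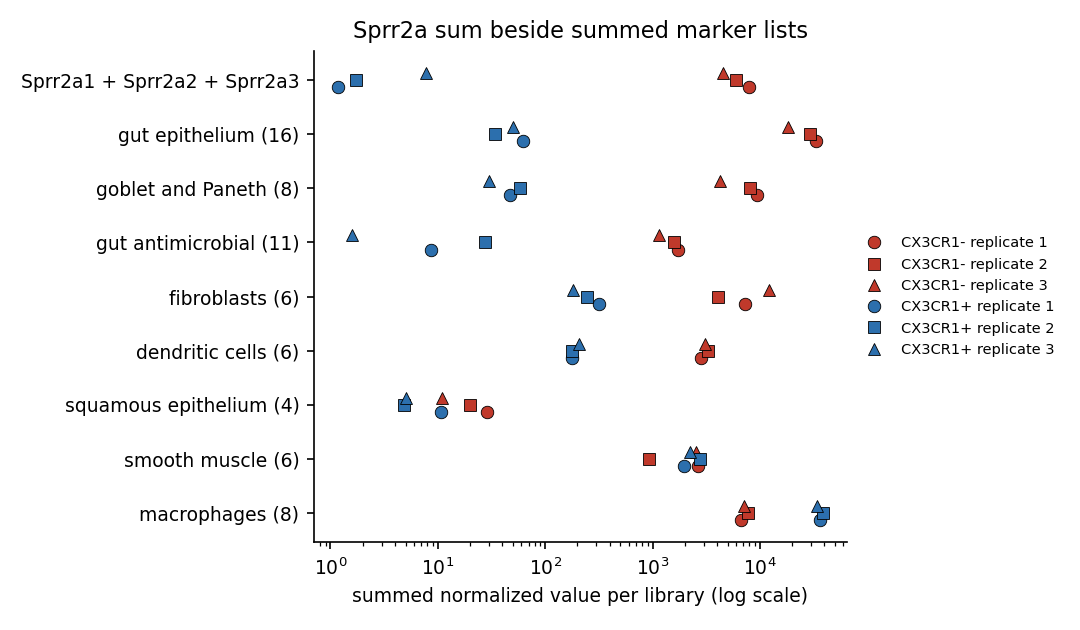
Summed normalized value per library on a log axis for Sprr2a1, Sprr2a2 and Sprr2a3 together and for 8 lists of genes, with the number of genes that had values in brackets. CX3CR1- libraries are red and CX3CR1+ libraries blue. The Sprr2a, gut epithelium, goblet and Paneth, and antimicrobial sums are separated by wide gaps between populations, smooth muscle markers overlap, and macrophage markers lie higher in CX3CR1+ libraries.

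The other marker lists gave the context of the sort. The receptor gene used for the gate, Cx3cr1, was listed at 23.2, 18.9 and 28.5 in CX3CR1- and at 371, 380 and 347 in CX3CR1+ libraries (log2 fold change -3.92). Of the 6 genes listed for the gate, the CD45 gene Ptprc included, 2 were lower in CX3CR1- cells and none higher. Among those lower was H2-Aa with a log2 fold change of -1.003, a call that was lost with equal totals without mitochondrial genes. All 8 macrophage markers were lower in CX3CR1- cells (sum 6603 to 7722 against 33790 to 38378), and all 6 markers of conventional dendritic cells were higher (2830 to 3323 against 176 to 208). All 6 fibroblast markers were higher (4117 to 12168 against 181 to 316). Of the tested markers, CX3CR1- cells were higher in 5 and lower in 1 of 7 for lymphocytes, higher in 3 of 7 for enteric neurons and glia and in 1 of 4 for mesothelium. None of 6 smooth muscle markers was called, nor was the 1 tested neutrophil marker. With quantile normalization the calls of Cd8a (lymphocytes) and Sox10 (glia) were lost.

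For each member that was tested, the 3 genes with the most similar profile were sought by the Euclidean distance between log2(value + 1) values, each gene centred on its mean over the 6 libraries. Sprr2a1 was closest to Apoa4, an apolipoprotein gene of enterocytes (distance 0.43), Gstm3, a glutathione transferase gene (0.46), and Pls1, a gene of the microvillus protein plastin 1 (0.83). Apoa4 was listed at 827, 531 and 311 in CX3CR1- libraries and at 0 in each CX3CR1+ library. Among the genes closest to Sprr2a2 were Apob, which encodes apolipoprotein B (1.42), and Pls1 (1.57). Apob was listed at 1185, 905 and 710.1 in CX3CR1- and at 0, 0 and 1.32 in CX3CR1+ libraries. Sprr2a3 was closest to Isx, which encodes an intestinal homeobox factor (0.61), Gstm6 (0.66) and Apol9a (0.69). Isx was listed at 84.4, 27.8 and 59.3 in CX3CR1- libraries and at 0 in each CX3CR1+ library, with replicate 2 the lowest as for Sprr2a3. The distances rest mainly on the difference between populations, which the members share by choice. With a pseudocount of 10, Apoa4 and Gstm3 stayed with Sprr2a1, Fabp1 and Krt20 took the place of Apob and Pls1 for Sprr2a2, and the 3 genes nearest to Sprr2a3 were Peg3, Kcna2 and Timp3.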

How the data were processed

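Libraries of MHCII hi cells were grouped by their labels as CX3CR1- or CX3CR1+, with 3 libraries in each group. The members and gene lists were chosen with earlier results of these data known. The authors sequenced 75 bp single reads, pseudoaligned them to the mm10 transcriptome of GENCODE M16 with Kallisto, summed them per gene with tximport and scaled libraries with DESeq2. The deposited table holds this normalized signal, of which only 42.5 to 44.6% above 0 were whole multiples of 1 read (tolerance 0.01), so that no count test was run. Approximate depth was 5346379 to 17616748 reads, and intervals cover counting error only.

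A fit of log2(value + 1) with limma 3.58.1 under R 4.3.3 (eBayes with trend, two-sided, Benjamini-Hochberg adjustment) took in the 17812 of 26110 genes whose mean over all libraries reached 10. A fold change understates that of low genes. Of each list the text names at most 5 called genes with the largest change, other Sprr genes, the 3 genes nearest to each tested member (1 of them is not reported here) and, chosen after their values were seen, some that were not called. Of listed symbols, 23 occur more than once. Positions and 31-base stretches came from GENCODE M21 and promoters from RefSeq for GRCm38.p6, whereas the values rest on M16. Plots were drawn with matplotlib 3.10.9. Alternatives were pseudocounts of 0.5 and 10, no filter, a mean of at least 50, 3 other scalings, no trend and leaving out each library. A block for adjacent library numbers was added after the data had been seen.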

Additional observations from a re-analysis of the deposited data

How the results depend on the processing

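With a mean of at least 50 required, 1232 genes were called higher in CX3CR1- cells instead of 2177, since fewer genes were tested, and Sprr2a3 fell below the filter, which left 2 members called. In every other alternative 3 members were called higher. Leaving out 1 library at a time gave 1724 to 2263 genes called higher and 1011 to 1606 called lower, and the direction of Sprr1a, Sprr2a1, Sprr2a2, Sprr2a3 and the Sprr2a sum stayed the same under all alternatives run for them. The sizes of these log2 fold changes depended on the pseudocount, because the CX3CR1+ values are at or near 0. With a pseudocount of 10 they were 5.81 for Sprr2a1, 8.67 for Sprr2a2, 2.38 for Sprr2a3, 0.93 for Sprr1a and 8.82 for the sum, and with 0.5 they were 10.11 for Sprr2a1 and 6.37 for Sprr2a3. The median log2 fold change over all tested genes was -0.15 after quantile normalization and 0.17 with equal totals without mitochondrial genes. The labels give no pairing, but library numbers are adjacent across populations. With these pairs as a replicate block, 2165 genes were called higher and 1445 lower and 3 members higher. The deviations of paired libraries from their group means correlated across genes at 0.10, 0.04 and 0.01 in the 3 pairs. CX3CR1- replicate 3 correlated slightly better with another number (0.04). With deviations from means of 3 libraries, this check cannot decide if the libraries are paired. The main fit took them as unpaired, because the labels give no pairing. Depth limits Sprr1a, with 28 and 3 reads in the 2 populations, and the split among the near-identical Sprr2a genes rests on estimated reads.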
